A study of Homo sapiens with 60 samples.

Results

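The transforming growth factor beta (TGF-beta) and YAP pathways were followed through 31 genes in SW1783 cells, an established human astrocytoma line, treated with herbal water extracts. The genes were taken by name, with earlier results of these data known. They are 5 TGF-beta ligands and latency proteins, 7 receptors, SMADs and SMAD repressors and 3 TGF-beta targets. The others are 4 YAP factors, 6 regulators of the Hippo pathway and 6 YAP targets. All 31 were found by symbol among the 60675 genes of the count table, and all 31 passed the filter on low counts, as 17516 genes did. They were read over 60 RNA-seq libraries in 25 groups.

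Vehicle cells received 0.1% DMSO according to the sample labels, while the series description states 2%. Extract cells received for 24 h a water extract of Cnidii Rhizoma, Rehmanniae Radix Preparata, Cinnamomi Cortex, Astragali Radix, Angelicae Gigantis Radix or Paeoniae Radix, or of the formulas Sagunja-tang or Samul-tang, named Cnidium, Rehmannia, Cinnamon, Astragalus, Angelica, Paeonia, Sagunja and Samul here. Each was given at 20 µg/mL (low), 100 µg/mL (medium) and 500 µg/mL (high), with 3 libraries per group, except 2 per dose for Samul and 1 per dose for Angelica and Paeonia. No agent that acts on TGF-beta or YAP was among these groups, and all cells grew in the same serum-containing medium.

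Secreted TGF-beta is held in the matrix in a latent form. Once released it binds a pair of receptor kinases that phosphorylate SMAD2 and SMAD3, which enter the nucleus with SMAD4 and switch target genes, while SKI and SKIL repress them. YAP and its relative TAZ are transcription cofactors that bind DNA through TEAD factors, and the Hippo kinases, LATS2 among them, hold them in the cytoplasm. Several genes, CCN2 above all, answer to both pathways, which are known in astrocytes and gliomas for their part in scar formation, migration and invasion.

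At 20 µg/mL the YAP and TGF-beta target CCN2 was already below vehicle with each of the 6 replicated extracts, by 0.54 to 0.70 log2 units. SMAD3, PMEPA1 and AXL were lower by less, and TGFB3 was higher. Further change up to 500 µg/mL differed by extract: with Cinnamon, ANKRD1 and CCN2 fell together with SKIL, NUAK2, TGFB3 and LTBP2. The coagulation factor gene F3 rose with Rehmannia and Sagunja, and also with Cinnamon and Samul in a fit without 1 outlying library. No member was called between the Cnidium doses.

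The libraries held 20604792 to 29609799 expected counts and 22791 to 24044 genes with a count. Library 1 of Sagunja low stood apart from its replicates: the chi-square of its counts against those of libraries 2 and 3 had a median over genes of 22.6 and 23.9, where counting noise alone gives 0.45 and other replicate pairs had at most 2.92. Of the 31 members, 24 were lowest and 5 highest in it among the 3 libraries, and 13 lay more than 1 log2 unit below the mean of the other two. Its spread enters every test through the shared estimate (biological coefficient of variation 0.094 with it, 0.059 without), so results are given both with all libraries and without this library. Vehicle and extract libraries carry different set codes, and a DMSO level is labelled for vehicle libraries alone, so set and solvent cannot be told apart from treatment in a comparison with vehicle. Comparisons between doses of the same extract lie within 1 set, while the low doses of different extracts lie partly in different sets. Nothing in the labels says that the replicates were separate cultures, and p-values then reflect spread among the libraries at hand.

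The astrocytic identity in the label was in part absent from the RNA. Median levels were 0.058 CPM (counts scaled to a common library total) for GFAP, 0.097 for S100B and 0.0 for AQP4, ALDH1L1 and SOX2, while VIM (5323 CPM), CD44 (2666 CPM) and SOX9 (74.8 CPM) were well expressed. Of the same astrocyte and glioma list, SLC1A3 (23.5 CPM) and NES (6.69 CPM) were expressed too, and OLIG2 was at 0.18 CPM. COL1A1 had a median of 3556 CPM. EPCAM, CDH1, CD3E, MS4A1 and CDH5, which define epithelial, lymphoid and endothelial cells, had medians of at most 0.042 CPM. Other markers in the same lists were expressed: KRT18 (208 CPM) and KRT8 (18.1 CPM) of the epithelial list, CD68 (150 CPM) and PTPRC (10.1 CPM) of the leukocyte list and KDR (29.99 CPM) of the endothelial list.

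**Figure D1:**
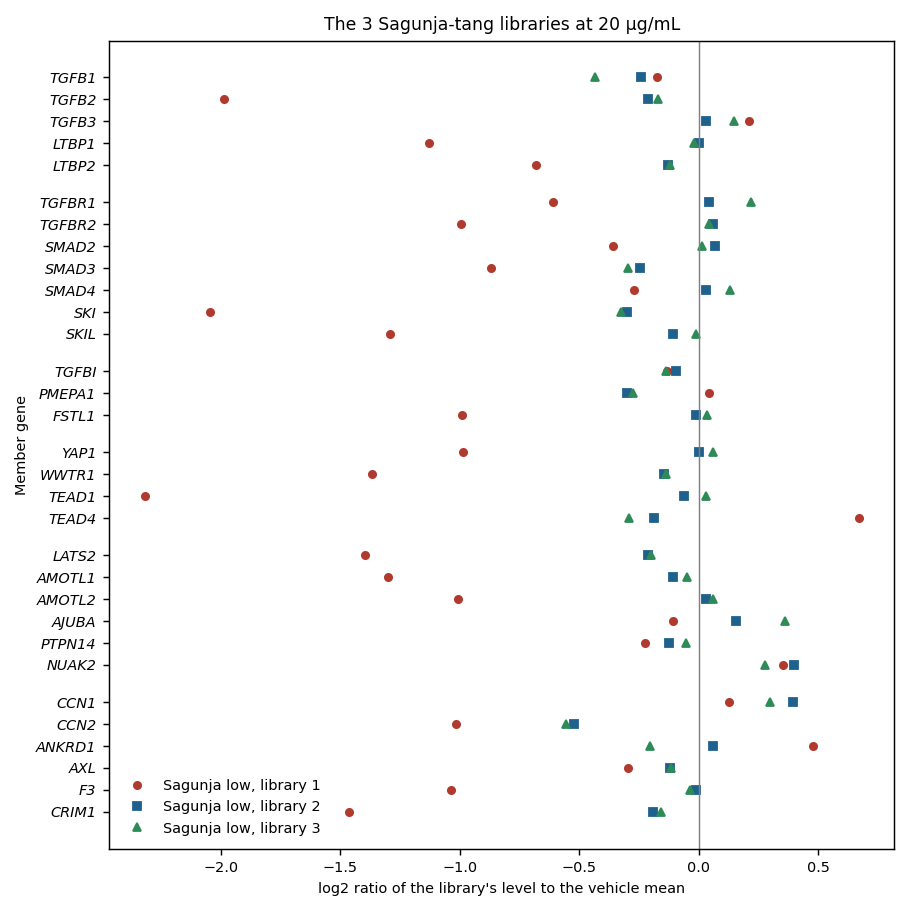
The log2 ratio of each Sagunja low library to the vehicle mean is plotted for the 31 members, with 1 symbol per library. Library 1 departs from the other two by -2.30 to 0.91 log2 units, whereas libraries 2 and 3 lie within 0.26 of each other.

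Levels between members are set side by side per kilobase of exon, counted over all exons annotated for a gene. On this scale the vehicle libraries had the highest level for TGFBI, a matrix protein gene induced by TGF-beta (622 ± 4.65 CPM per kb, SD, n = 3), followed by the ligand TGFB1 (160 ± 3.52), CCN1 (143 ± 1.53), the receptor kinase AXL (129 ± 2.61) and CCN2 (81.5 ± 1.38). TGFB2 stood at 5.49 ± 0.29 and TGFB3 at 2.52 ± 0.09, so TGFB1 was the most abundant of the 3 ligand genes. SMAD2 was lowest at 2.41 ± 0.06, but its annotated exons together span 36366 bases. Before that division it had 87.8 CPM against 12.4 for TGFB3, so its place rests on the length used. YAP1 was at 24.8 ± 0.38 and its relative WWTR1, which encodes TAZ, at 9.19 ± 0.25.

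The shift at 20 µg/mL was tested by the mean of the low doses of Cnidium, Rehmannia, Cinnamon, Astragalus and Samul (14 libraries) against vehicle (3 libraries). Sagunja low was kept apart because of its library 1. A gene was called at an adjusted p under 0.05, and each change is a log2 fold change with its standard error. With all libraries 1 member was called higher and 4 lower, where 2.07% and 1.86% of all genes were. The members were chosen with earlier results of these data known, so the shares beside their counts are no test of the list. Without library 1 of Sagunja low, 1 was higher and 13 lower (all genes 4.76% and 7.84%), and the 5 calls of the first fit were among them. The median change over the 31 members was -0.10, against 0.01 over all genes, and -0.11 against 0.00 without the library. All 14 low-dose libraries lay below all vehicle libraries for 10 members (4.26% of all genes) and above them for 1 (2.51%). Of the astrocyte and glioma markers 1 of 11 was lower with all libraries, the fit from which the marker counts are taken. Their summed level, mainly VIM and CD44 with GFAP, S100B and AQP4 near 0, was 7756 to 8523 CPM at the low dose against 8692 to 8943 in vehicle. Of the fibroblast markers 1 of 9 was higher and 1 lower, and they summed to 6301 to 6949 CPM against 7001 to 7045. Neither sum overlapped, and the part of these markers in the shift was not tested. In these bulk cultures fewer cells of a kind and less RNA per cell cannot be told apart.

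**Figure D2:**
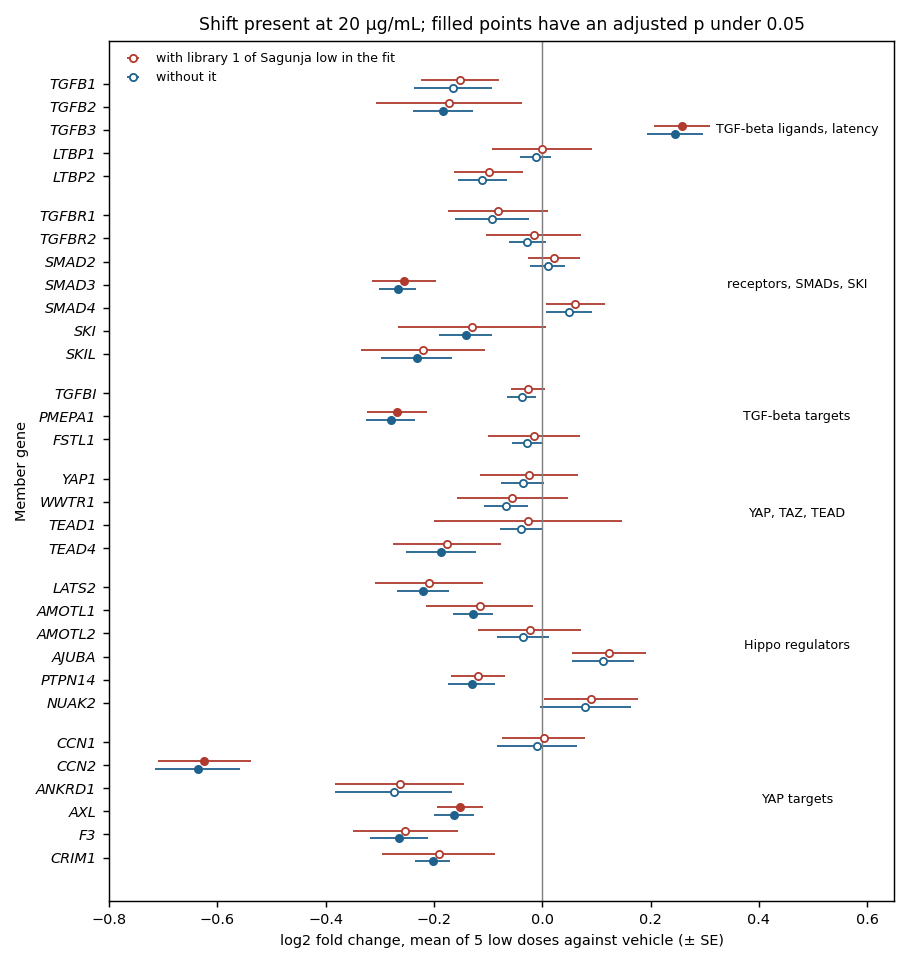
The horizontal axis gives the log2 fold change of the pooled low doses of 5 extracts against vehicle with its standard error for each member, in red with all libraries and in blue without library 1 of Sagunja low, and filled points are called. CCN2 lies farthest from 0 at -0.62, 25 of the 31 points with all libraries lie below 0, and TGFB3 is the 1 called point above 0.

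Among ligands and latency proteins, TGFB3 (ENSG00000119699, GRCh38 chromosome 14, 75958099 to 75982991) was higher at the low dose. The vehicle libraries had 12.6, 11.9 and 12.7 CPM, and the 14 low-dose libraries had 13.4 to 16.1 with a median of 14.7, so the groups did not overlap. The rise was 0.26 ± 0.05 (adjusted p = 0.00144) and 0.25 ± 0.05 without the outlying library (adjusted p = 0.000762). TGFB2 ranged from 22.0 to 28.7 CPM against 26.8 to 29.8 in vehicle, and was called lower without the outlying library (-0.18 ± 0.06, adjusted p = 0.0217) but not with it (adjusted p = 0.616). TGFB1, LTBP1, which encodes the protein that binds latent TGF-beta to the matrix, and its relative LTBP2 were not called in either fit. LTBP2 nevertheless did not overlap, with 35.0 to 40.8 CPM against 41.4 to 42.8.

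Among receptors and SMAD proteins, SMAD3 (ENSG00000166949, chromosome 15, 67063763 to 67195195), the receptor-activated transcription factor of the pathway, was lower at the low dose. Vehicle libraries had 146.9, 148.4 and 146.7 CPM, and the low-dose libraries had 110.7 to 135.3 with a median of 123.2, with no overlap. The change was -0.26 ± 0.06 (adjusted p = 0.00722) and -0.27 ± 0.03 without the outlying library (adjusted p = 1.55e-07). The first call was lost without any 1 of the 3 vehicle libraries. SKIL and SKI, which repress SMAD target genes, were called lower without the outlying library (SKIL -0.23 ± 0.07, adjusted p = 0.0141; SKI -0.14 ± 0.05, adjusted p = 0.0445), against adjusted p of 0.361 and 0.745 with it. SKIL did not overlap, at 60.6 to 85.2 CPM against 85.9 to 89.8. Neither fit called the receptors TGFBR1 and TGFBR2, SMAD2 or SMAD4.

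Of the 3 TGF-beta targets, PMEPA1, which encodes a membrane protein that restrains SMAD activation, was lower. Vehicle libraries had 220, 227 and 220 CPM and low-dose libraries 165 to 200 with a median of 184. The groups did not overlap, and the change was -0.27 ± 0.06 (adjusted p = 0.00195), or -0.28 ± 0.05 without the outlying library (adjusted p = 1.47e-05). TGFBI and FSTL1, a secreted follistatin-like protein gene, were not called in either fit (-0.03 ± 0.03 and -0.02 ± 0.09).

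The YAP factors were near vehicle. YAP1, WWTR1 and TEAD1 had low-dose changes of -0.02 ± 0.09, -0.06 ± 0.10 and -0.03 ± 0.17 and were not called in either fit. TEAD4, another of the DNA-binding partners, was called lower without the outlying library (-0.19 ± 0.06, adjusted p = 0.046) and not with it (adjusted p = 0.417). Of the Hippo regulators 0 were called by edgeR with all libraries, and 2 had an unadjusted p under 0.05. Without the outlying library LATS2, the kinase that inactivates YAP and TAZ (-0.22 ± 0.05, adjusted p = 0.00112), AMOTL1, which retains YAP at cell junctions (-0.13 ± 0.04, adjusted p = 0.0147), and the YAP-binding phosphatase gene PTPN14 (-0.13 ± 0.04, adjusted p = 0.04) were lower. LATS2 (28.0 to 34.9 CPM against 35.4 to 36.7) and AMOTL1 did not overlap with vehicle. AJUBA, a LATS-binding scaffold, was above the vehicle range in 12 of 14 low-dose libraries without being called.

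The 6 YAP targets ran from -0.62 to 0.00 in the shift, and the lowest value, also the lowest of the 31 members, was that of CCN2. Upstream sequences are shown for 3 targets that the results turn on. CCN2 and ANKRD1 fell with the Cinnamon dose, and F3 rose with the Rehmannia and Sagunja doses. Whether the sequences bear on these changes was not tested. CCN2 carries 3 copies of GGAATG, the core letters that TEAD factors bind, and ANKRD1 carries 1 in the stretch shown. F3 carries TGANTCA, the letters of AP-1, in 2 copies. The whole 250-base window of ANKRD1 holds another GGAATG and also TGANTCA. The end of the stretch shown cuts that TGANTCA and leaves it in lower case, so these letters are not particular to F3. Each sequence is the part of the 250 bases before the RefSeq start (GRCh38.p14) that lies outside exons of GENCODE 29, on the minus strand, 5′ to 3′, with these letters in capitals.
CCN2, chr6:131951374-131951622: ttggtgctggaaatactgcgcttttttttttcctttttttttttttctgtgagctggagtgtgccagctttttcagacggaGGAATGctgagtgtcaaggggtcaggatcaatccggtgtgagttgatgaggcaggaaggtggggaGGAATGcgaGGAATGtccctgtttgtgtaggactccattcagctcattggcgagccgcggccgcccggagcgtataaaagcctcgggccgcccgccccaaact
ANKRD1, chr10:90921277-90921337: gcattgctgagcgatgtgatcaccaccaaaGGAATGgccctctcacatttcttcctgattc
F3, chr1:94541801-94542009: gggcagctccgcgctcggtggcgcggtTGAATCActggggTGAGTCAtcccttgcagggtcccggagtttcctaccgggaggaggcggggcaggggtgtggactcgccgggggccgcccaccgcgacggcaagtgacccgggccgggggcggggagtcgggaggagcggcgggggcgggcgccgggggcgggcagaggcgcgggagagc

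RefSeq held upstream windows for 26 of the 31 members, 49 windows in all, and SKI, TEAD1, TEAD4, CCN1 and CRIM1 had no entry. GGAATG or its complement CATTCC lay in 10 of the 49 windows, against 11.9% of 35116 windows of the same length. CAGAC or GTCTG, the letters SMAD proteins bind, lay in 21 of 49, against 38.0%. TGANTCA, which reads the same on both strands, lay in windows of F3, ANKRD1 and SMAD3, 3 of 49 against 6.6%. No 2 of the stretches in capitals overlap. A match is a description of the letters and not of a bound site.

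CCN2 (ENSG00000118523, chromosome 6, 131948176 to 131951373), a secreted matrix signalling protein, was at 190, 194 and 188 CPM in vehicle and at 109 to 137 CPM in the 14 low-dose libraries, with a median of 122. No library overlapped. The fall was 0.62 ± 0.09 log2 units (-0.62, adjusted p = 5.8e-06), and 0.64 ± 0.08 without the outlying library (-0.64, adjusted p = 3.65e-07). CCN2 lay below the vehicle range in 57 of 57 extract libraries, the single Angelica and Paeonia libraries included. So did CRIM1, a membrane regulator of growth factors, and SKIL, PMEPA1, LATS2, AMOTL1 and AXL did in 56 of 57. The vehicle range spans 3 libraries of a different set, and the share over all genes was not counted. CCN2 and PMEPA1 together with TGFB3 kept their low-dose call when any 1 of 18 libraries was left out.

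AXL, a receptor kinase gene and known YAP target, was at 662, 650 and 676 CPM in vehicle and 542 to 635 CPM at the low dose, with no overlap. It was lower by a smaller step (-0.15 ± 0.04, adjusted p = 0.0334, and -0.16 ± 0.04 without the outlying library, adjusted p = 0.00181). Its first call was lost without any 1 vehicle library, without Cnidium low library 2 or without Samul low library 1. F3, which encodes tissue factor, was at 150, 144 and 144 CPM in vehicle against 104 to 140 at the low dose. CRIM1 was at 330 to 333 CPM against 265 to 310. Neither overlapped, and both were called without the outlying library (F3 -0.26 ± 0.05, adjusted p = 0.000479; CRIM1 -0.20 ± 0.03, adjusted p = 1.19e-05) but not with it (adjusted p = 0.157 and 0.39). CCN1, the close relative of CCN2, was at 289 to 399 CPM around a vehicle range of 347 to 354, and its change was 0.00 ± 0.08. ANKRD1, a nuclear ankyrin-repeat protein gene, ranged from 8.48 to 14.1 CPM against 13.4 to 13.5 and was not called (-0.26 ± 0.12, adjusted p = 0.263).

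The 6 single-extract comparisons of the low dose share the 3 vehicle libraries, so their values are set side by side. CCN2 was called lower in each: Cnidium -0.54 ± 0.12 (adjusted p = 0.0159), Rehmannia -0.59 ± 0.12 (0.00335), Cinnamon -0.70 ± 0.12 (0.000351), Astragalus -0.69 ± 0.12 (0.000294), Samul -0.60 ± 0.13 (0.0056) and Sagunja -0.67 ± 0.12 (0.000193, or -0.54 ± 0.12 and 0.00289 without its library 1). The Cnidium call was lost without any 1 vehicle library or Cnidium low library 1 or 3, and the Samul call without either of its 2 libraries. Of the 31 members 1 was called with Cnidium low, where 0.383% of all genes were, 1 with Rehmannia (0.993%), 2 with Cinnamon (1.06%), 5 with Astragalus (3.67%) and 3 with Samul (2.62%). Without the outlying library these counts were 3 (1.79%), 8 (3.64%), 8 (5.45%), 10 (14.1%) and 10 (13.2%). PMEPA1 was then lower in each of these 5, and SMAD3 and CRIM1 in 4.

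Sagunja low called 13 members with all 3 libraries (22.1% of all genes) and 11 without library 1 (11.4%), 8 of them in both. SMAD3 was at 80.7 CPM in library 1 against 124 and 120 in the others, TEAD1 at 44.5 against 212 and 227, TGFB2 at 7.12 against 24.4 and 25.1, and SKI at 26.2 against 87.9 and 86.5. Without that library SMAD3 (-0.27 ± 0.05, adjusted p = 0.00036), SKI (-0.31 ± 0.07, adjusted p = 0.00272), LATS2 and CCN2 were still lower, and CCN1 (0.35 ± 0.10, adjusted p = 0.0273) and NUAK2 (0.34 ± 0.12, adjusted p = 0.0492) were higher. An F test of differences among the 5 low doses called 0 members with all libraries (2 at an unadjusted p under 0.05, 0 with DESeq2, 0.0228% of all genes). It called SMAD3 (adjusted p = 0.00928) and SKI (adjusted p = 0.0461) without the outlying library, where 2.75% of all genes were called. Among these 5 extracts the mean of SMAD3 was lowest with Samul low, at 111.0 and 110.7 CPM. SMAD3 means were 133 and 129 CPM with Cnidium and Rehmannia low, and 123 and 118 CPM with Cinnamon and Astragalus low. Each of these pairs shares a set code, and Samul carries another. Extract and set thus cannot be told apart between sets in this test.

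**Figure D3:**
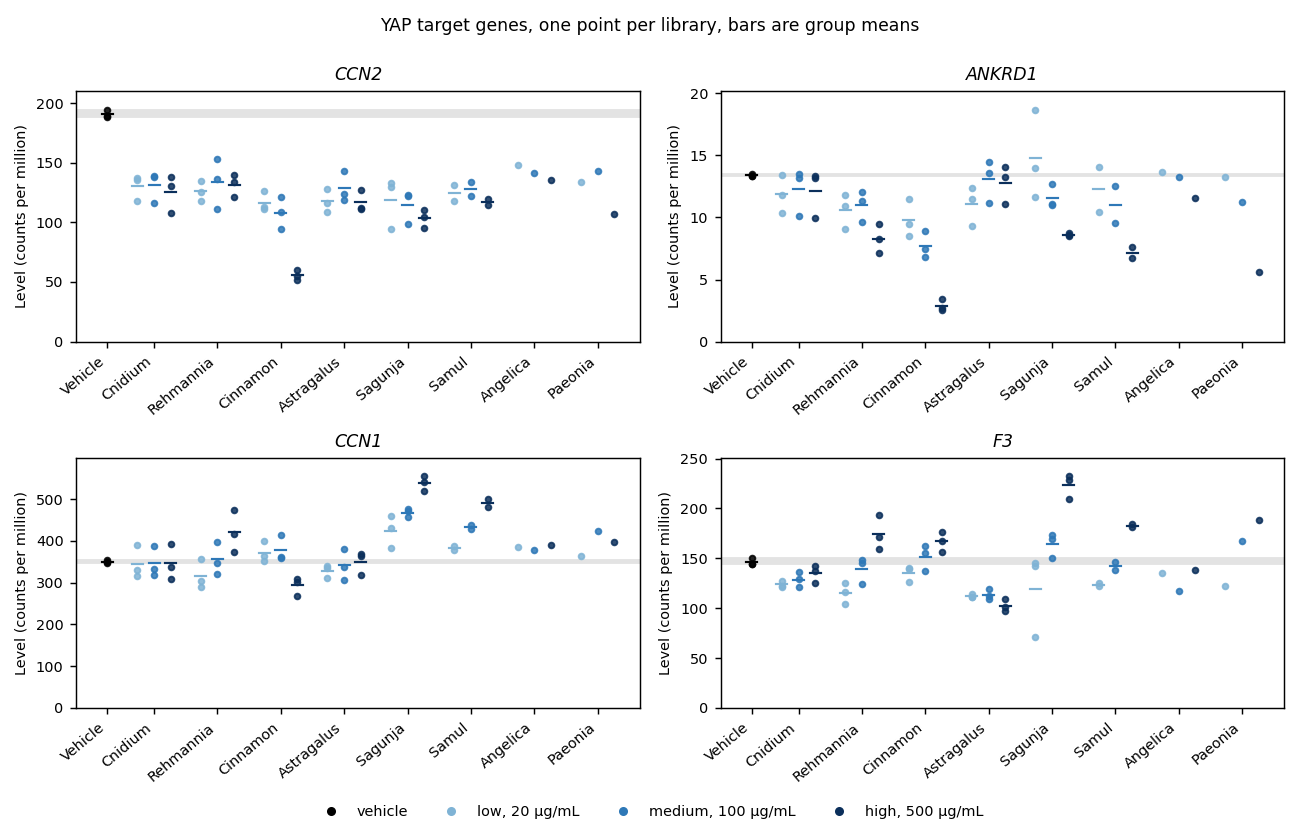
Levels in CPM of CCN2, ANKRD1, CCN1 and F3 are plotted for each library by extract and dose, with bars at group means and a grey band over the vehicle range. CCN2 is below the band in all 57 extract libraries and reaches 51.6 to 60.3 CPM with Cinnamon high, while F3 is above the band in all libraries of Rehmannia, Cinnamon, Sagunja, Samul and Paeonia high.

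Change with dose was read from the high against the low dose of the same extract. This shares the low-dose libraries with the comparisons above but no vehicle library. With Cinnamon, 1 member was called higher and 10 lower, against 10.3% and 11.2% of all genes. Without library 1 of Sagunja low, which enters here through the shared spread alone, 3 were higher and 16 lower (18.3% and 17.6% of all genes), the first 11 among them. The median member changed by -0.14, against 0.00 over all genes. By role, with all libraries 2 of 5 ligand and latency genes, 1 of 7 receptor and SMAD genes, 1 of 3 TGF-beta targets, 0 of 4 YAP factors, 2 of 6 Hippo regulators and 4 of 6 YAP targets were lower.

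ANKRD1 (ENSG00000148677, chromosome 10, 90912096 to 90921276) was at 8.48, 9.46 and 11.4 CPM with Cinnamon low, 6.79, 7.42 and 8.89 with medium and 2.67, 2.56 and 3.44 with high. High and low did not overlap, and the change was -1.75 ± 0.18 (adjusted p = 5.65e-10). CCN2 was at 111, 113 and 126 CPM with low, 94.4, 108 and 121 with medium and 51.6, 54.7 and 60.3 with high. It thus fell a second time, from a level already below vehicle, by 1.07 ± 0.12 log2 units (-1.07, adjusted p = 2.47e-09). CCN1 (-0.34 ± 0.10, adjusted p = 0.0101) and CRIM1 (-0.42 ± 0.14, adjusted p = 0.0226) fell too. CCN1 was not called without Cinnamon high library 1 or Cinnamon low library 3, nor CRIM1 without Cinnamon low library 1 or 2 or Cinnamon high library 2. F3 went the other way, from 126, 140 and 140 to 156, 168 and 177 CPM, and was called without the outlying library (0.31 ± 0.07, adjusted p = 0.000413) and not with it (adjusted p = 0.0745). AXL was called in neither fit.

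On the TGF-beta side of the Cinnamon response, SKIL went from 60.6, 69.5 and 67.7 CPM to 40.1, 36.0 and 44.6 (-0.71 ± 0.15, adjusted p = 0.000547). TGFB3 went from 14.8, 13.4 and 15.1 to 10.6, 10.0 and 9.96 CPM (-0.50 ± 0.07, adjusted p = 1.63e-07). It had been above vehicle at the low dose and was below the vehicle range at the high dose. LTBP2 (-0.46 ± 0.08, adjusted p = 4.48e-05) went from 40.8, 37.8 and 36.5 to 27.0, 29.6 and 26.7 CPM, and PMEPA1 (-0.33 ± 0.07, adjusted p = 0.00062) from 199, 165 and 166 to 137, 143 and 140. In all of these the high libraries lay below the low ones. The type I receptor gene TGFBR1 was higher (0.39 ± 0.12, adjusted p = 0.0139), from 64.3, 79.9 and 76.8 to 99.3, 89.0 and 100.2 CPM, a call lost without Cinnamon low library 1 or Cinnamon high library 3. SMAD3 was not called for the Cinnamon dose in either fit and stood at 131, 131 and 120 CPM at the high dose, all below vehicle.

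Among Hippo genes, NUAK2, a kinase gene that YAP induces (-0.52 ± 0.11, adjusted p = 0.000546), and AMOTL2, a junction scaffold and YAP target (-0.41 ± 0.12, adjusted p = 0.0139), fell with the Cinnamon dose. NUAK2 went from 15.0, 11.6 and 13.2 to 10.0, 8.69 and 8.90 CPM. The AMOTL2 call was lost without Cinnamon high library 2. TEAD1 went from 216, 223 and 212 CPM to 152, 160 and 168 without overlap. It was not called with all libraries (-0.44 ± 0.22, adjusted p = 0.166), among them the Sagunja library with 44.5 CPM, and was called without that library (-0.44 ± 0.05, adjusted p = 1.78e-09). TGFB2, LTBP1, TGFBI, AMOTL1 and PTPN14 were likewise lower and SMAD4 higher in that fit alone, by -0.31 to 0.14 log2 units. Between Cinnamon low and medium no member was called (1 at an unadjusted p under 0.05, 0 with DESeq2, 0.12% of all genes). The summed level of 9 fibroblast and mesenchymal markers was 4677 to 5447 CPM with Cinnamon high against 6307 to 6949 with low, with 3 of 9 lower, and that of 5 epithelial markers, mainly KRT18 and KRT8 with EPCAM and CDH1 near 0, was 85.3 to 91.5 against 201 to 213, with 2 of 5 lower. The 6 leukocyte markers, mainly CD68 with CD3E and MS4A1 near 0, summed to 205.7 to 235.7 CPM against 157.0 to 198.2, with 1 higher and 1 lower. These marker counts are from the fit with all libraries, and the part of the markers in these results was not tested.

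**Figure D4:**
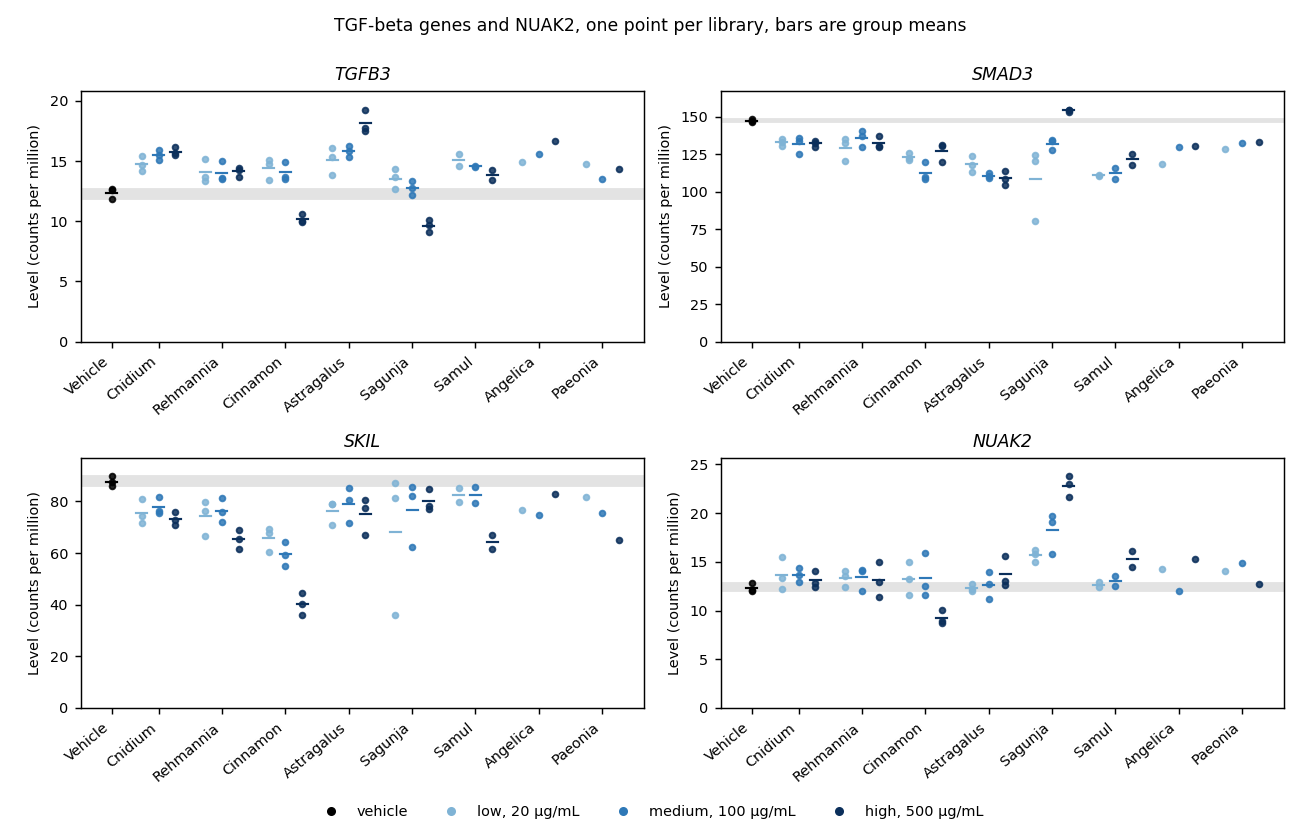
Levels in CPM of TGFB3, SMAD3, SKIL and NUAK2 are plotted for each library by extract and dose, with bars at group means and a grey band over the vehicle range. TGFB3 is above the band in all low-dose libraries except 1 of Sagunja and below it with Cinnamon and Sagunja high, and SMAD3 is above the band with Sagunja high alone.

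Sagunja gave a mixed response: 10 members were called higher and 5 lower with all libraries (7.93% and 12.5% of all genes). Without library 1 of its low dose, 4 were higher and 5 lower (3.49% and 3.0%), and 7 were called in both fits. F3 (ENSG00000117525, chromosome 1, 94529225 to 94541800) was at 71.2, 145 and 143 CPM with low, 151, 174 and 169 with medium and 209, 229 and 232 with high, and rose by 0.90 ± 0.13 (adjusted p = 1.62e-06) or, without library 1, by 0.64 ± 0.08 (adjusted p = 3.18e-08). SMAD3 was at 153, 155 and 154 CPM with high, above all vehicle libraries, and rose by 0.51 ± 0.08 (adjusted p = 9.74e-06) or 0.34 ± 0.05 (adjusted p = 2.32e-06). NUAK2 rose from 15.8, 16.3 and 15.0 to 21.6, 23.0 and 23.8 CPM (0.54 ± 0.11, adjusted p = 0.000423, and 0.55 ± 0.11 without library 1, adjusted p = 0.000538). In these 3 genes the high libraries lay above the low ones.

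ANKRD1 fell with the Sagunja dose, from 18.7, 14.0 and 11.7 to 8.49, 8.60 and 8.75 CPM, by -0.77 ± 0.16 (adjusted p = 0.000784) or, without library 1, -0.57 ± 0.16 (adjusted p = 0.0227). TGFB3 fell from 14.3, 12.6 and 13.7 to 10.1, 9.07 and 9.71 CPM (-0.49 ± 0.07, adjusted p = 1.06e-06, and -0.44 ± 0.08, adjusted p = 3.5e-05). TGFBI fell from 4438, 4548 and 4418 to 3857, 3925 and 3836 CPM (-0.21 ± 0.04 in both fits, adjusted p = 0.0005 and 0.000154). TGFB2 rose by 0.70 ± 0.18 (adjusted p = 0.00641) with library 1, in which it had 7.12 CPM, and by 0.33 ± 0.08 (adjusted p = 0.0061) without it. The calls of TGFB1, TGFBR1, TGFBR2, SMAD2, FSTL1, TEAD4, CCN1 and CRIM1 were lost without that library. LTBP1 (-0.24 ± 0.04, adjusted p = 2.64e-05) and WWTR1 (-0.21 ± 0.06, adjusted p = 0.0232) were called lower in its absence. CCN2 was at 95.0, 105 and 110 CPM with high, between library 1 of the low dose and the other two, and was called in neither fit. Against the low dose, Sagunja medium called 4 members (9.09% of all genes) and, without library 1, 0 (4 at an unadjusted p under 0.05, 0.556% of all genes). Fibroblast markers summed to 5154 to 5174 CPM with Sagunja high against 5778 to 6282 with low (6 of 9 lower), and epithelial markers to 114.2 to 123.0 against 187.5 to 369.7 (2 of 5 lower). Leukocyte markers summed to 166.3 to 177.7 CPM against 97.9 to 166.6 (1 of 6 higher). These marker counts and low-dose ranges include library 1, and the counts were not repeated without it. Of the 9 fibroblast markers, ACTA2 kept its call without library 1 (-0.60 ± 0.09) and TAGLN did not (-0.15 ± 0.10). The part of the markers in these results was not tested.

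The other extracts moved few members. With Rehmannia 2 were called higher (0.805% of all genes), both YAP targets. F3 went from 104, 117 and 126 CPM through 124, 145 and 148 to 159, 171 and 193 (0.59 ± 0.13, adjusted p = 0.00778, and 0.60 ± 0.07 without the outlying library, adjusted p = 3.42e-08). CCN1 went from 304, 289 and 356 to 373, 417 and 473 CPM (0.41 ± 0.10, adjusted p = 0.0229). F3 thus started below and ended above all vehicle libraries. CCN1 ended above them too. The F3 call was lost without Rehmannia low library 1 or high library 3, and the CCN1 call without Rehmannia low library 1 or 2 or high library 2 or 3. In the fit without the Sagunja library 4 members were called (3.51%), FSTL1 (0.14 ± 0.04) and TGFBI (-0.15 ± 0.04) being added.

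With Samul, 1 member was called (0.736% of all genes): ANKRD1 went from 10.5 and 14.1 to 6.72 and 7.61 CPM (-0.78 ± 0.20, n = 2, adjusted p = 0.0436), a call lost without either high library or low library 2. Without the Sagunja library 2 were called (1.92%), the second being F3, from 122 and 125 to 181 and 184 CPM (0.57 ± 0.08, adjusted p = 1.04e-05, against 0.0815 with all libraries). With Astragalus 1 was called (0.28% of all genes): TGFB3 went from 13.8, 16.1 and 15.4 to 17.5, 19.3 and 17.8 CPM (0.27 ± 0.06, adjusted p = 0.048). That call was lost without any 1 of the 3 high libraries or low libraries 1 or 3. Same-numbered libraries of these groups deviated together (correlations 0.13 to 0.40), though the labels do not say that they were paired. With the replicate block within the set the call was lost as well (0.27, adjusted p = 0.0535). With Cnidium 0 were called (0 at an unadjusted p under 0.05, 0 with DESeq2, 0.228% of all genes), and the members' changes ran from -0.12 to 0.12. Medium against low called 0 members with Cnidium (0.0% of all genes), Rehmannia (0.0114%), Astragalus (0.0%) and Samul (0.0%). At an unadjusted p under 0.05 these counts were 0, 2, 0 and 0, and DESeq2 called 0 in each.

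**Figure D5:**
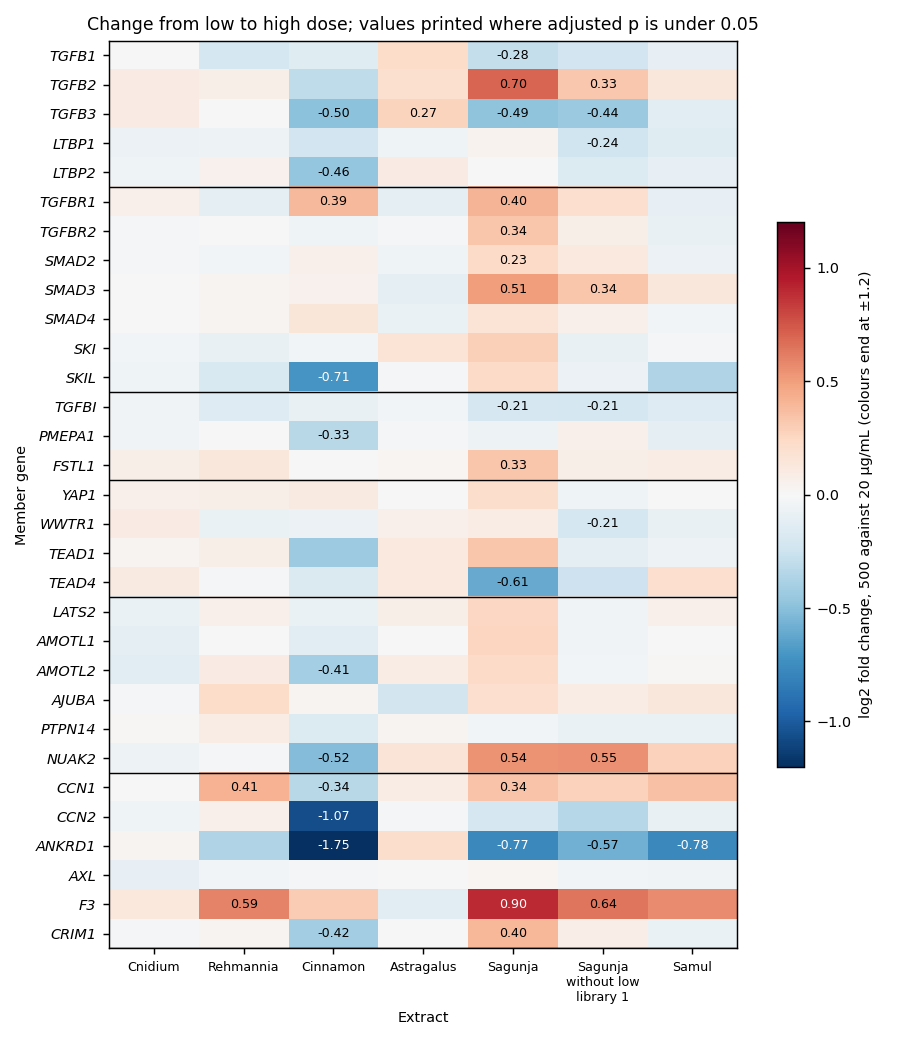
The heat map gives the log2 fold change of the high against the low dose for each member (rows) and extract (columns), with Sagunja shown also without library 1 of its low dose. ANKRD1 and CCN2 with Cinnamon are lowest at -1.75 and -1.07, and F3 is positive with Cnidium (0.12), Rehmannia (0.59), Cinnamon (0.31), Sagunja (0.90) and Samul (0.56) and negative with Astragalus (-0.13).

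Set together, the shift at 20 µg/mL and the change with dose fell on different members in part. The shift here is the pooled mean, which leaves out Sagunja low, while the dose calls include Sagunja. With all libraries, 1 member (AXL) was called for the shift alone, 16 for change with dose in at least 1 extract alone, 4 for both (TGFB3, SMAD3, PMEPA1 and CCN2) and 10 for neither. The same split over all genes tested was 1.52%, 35%, 2.41% and 61%. Of the 16, TGFB1, TGFB2, LTBP2, NUAK2, CCN1 and CRIM1 were called in Sagunja low against vehicle with all libraries. Of the 10, SKI, WWTR1, LATS2 and AMOTL1 were. Without the outlying library the members' counts were 4, 12, 10 and 5, against 5.47%, 32.9%, 7.14% and 54.5% of all genes, and YAP1 and AJUBA were among those with neither call in both fits. For CCN2 and PMEPA1 the shift and the Cinnamon change had the same sign. TGFB3 was higher at the pooled low dose, then fell with Cinnamon and was called higher with Astragalus high. The Astragalus call was lost with the replicate block within the set. TGFB3 fell with Sagunja too, where its low dose was not called above vehicle (0.14 ± 0.07, adjusted p = 0.127). SMAD3 was lower at the low dose and then rose with Sagunja. ANKRD1, NUAK2 and CCN1 were called for dose and not for the pooled shift. NUAK2 (0.36) and CCN1 (0.29) were nevertheless called higher with Sagunja low, which the pooled mean leaves out.

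Extracts of the same set were compared by the difference between their high-minus-low changes. Between Cinnamon and Astragalus 10 members differed (14.4% of all genes), and 18 without the outlying library (27.8%), the 10 among them. ANKRD1 (-1.96 ± 0.24, adjusted p = 5.28e-08), CCN2 (-1.05 ± 0.16, adjusted p = 7.44e-06), TGFB3 (-0.76 ± 0.09, adjusted p = 3.44e-08), NUAK2 (-0.68 ± 0.16, adjusted p = 0.00201) and LTBP2 (-0.56 ± 0.12, adjusted p = 0.000572) changed more negatively with Cinnamon, and these 5 calls were kept when any 1 of 13 libraries was left out. Between Sagunja and Samul, TEAD4 and TGFB3 differed (2.89% of all genes), and 0 did without library 1 of Sagunja low (6 at an unadjusted p under 0.05, 3.06%). Between Cnidium and Rehmannia 0 differed with all libraries (3 at an unadjusted p under 0.05, 0 with DESeq2, 0.04%), and F3 did without the outlying library (-0.47 ± 0.10, adjusted p = 0.0126, 0.189%).

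Further genes of the pathways were counted from 4 lists: 27 other TGF-beta components, 19 other TGF-beta targets, 28 other Hippo components and 17 other YAP targets that passed the filter. At the pooled low dose 4, 5, 2 and 0 of them were lower and 0 higher, with medians of -0.05, -0.14, -0.02 and -0.05 against 0.01 over all genes. Of all genes 1.86% were lower and 2.07% higher. Without the outlying library 7, 10, 6 and 3 were lower and 2, both Hippo components, higher, against 7.84% and 4.76% of all genes. Among the lower genes were the Hippo activator gene NF2 (-0.32 ± 0.07, adjusted p = 0.00654), the activin subunit gene INHBA (-0.30 ± 0.05, adjusted p = 0.000371) and the ubiquitin ligase gene SMURF1 (-0.28 ± 0.04, adjusted p = 2.62e-05). With the Cinnamon dose 5, 1, 1 and 1 rose and 6, 7, 3 and 8 fell, with medians of -0.01, -0.22, -0.11 and -0.25 against 0.00. Of all genes 10.3% rose and 11.2% fell, shares near which several of these counts lie. Without the outlying library 8, 1, 1 and 1 rose and 9, 11, 10 and 11 fell, against 18.3% and 17.6% of all genes. The YAP target EDN1, encoding endothelin 1, fell with a log2 change of -2.0 ± 0.19 (adjusted p = 6.63e-11), the elastin gene ELN was lower by -0.76 ± 0.21 (adjusted p = 0.00629) and the integrin gene ITGB8, whose product activates latent TGF-beta, by -0.65 ± 0.17 (adjusted p = 0.00403). The repressor gene TGIF1 rose by 0.64 ± 0.08 (adjusted p = 2.8e-08).

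With the Sagunja dose 7, 6, 3 and 5 of these genes rose and 2, 4, 2 and 2 fell, with medians of 0.19, 0.23, 0.14 and 0.18 against -0.02 over all genes, of which 7.93% rose and 12.5% fell. Without library 1 of the low dose 4, 5, 2 and 5 rose and 2, 4, 2 and 2 fell (3.49% and 3.0% of all genes), with medians of 0.11, 0.02, -0.04 and 0.03 against 0.00. INHBA rose by 1.37 ± 0.07 (adjusted p = 6.85e-19), and by 1.49 ± 0.07 without library 1 of the low dose. ACTA2, the smooth muscle actin gene that TGF-beta induces, fell by -0.77 ± 0.09 and -0.60 ± 0.09 in the 2 fits. The call of TAGLN, another contractile target, rested on library 1 (-0.69 ± 0.16, adjusted p = 0.00344, against -0.15 ± 0.10 and 0.517 without it). INHBA rose with Rehmannia (0.32 ± 0.07, adjusted p = 0.0114) and Samul (0.39 ± 0.09, adjusted p = 0.0127) as well.

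Angelica and Paeonia had 1 library at each dose and no test. From low to high, ANKRD1 was at 13.7, 13.3 and 11.5 CPM with Angelica and at 13.3, 11.3 and 5.57 with Paeonia. F3 was at 136, 118 and 138 with Angelica and at 122, 167 and 189 with Paeonia. CCN2 was at 148.4, 141.1 and 135.6 and at 133.9, 143.4 and 106.8, all below the vehicle range. TGFB3 lay between 13.5 and 16.7 CPM in these 6 libraries, above the vehicle range, and SMAD3 between 118 and 133, below it.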

How the data were processed

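RNA was sequenced as directional mRNA libraries with 100 bp paired reads, per the labels' protocols. The authors deposited RSEM expected counts per gene. The submitters' processing notes name FastQC 0.11.9, Trim Galore 0.6.5, STAR 2.7.3a, RSEM 1.3.3 and hg38, while the annotation release they used is not given in the sources here. Of 279 table columns, 60 were used and 219 were not. The expected counts (90.67% already whole) were rounded. Symbols covered 56558 genes, and positions came from GENCODE 29. The members and lists were chosen with earlier results of these data known, and any of the 31 members could be named. Outside them, up to 4 called list genes with the largest changes were named per comparison, at a mean of at least 1 CPM. 1 such gene is not reported here.

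Genes were filtered with filterByExpr and scaled by TMM (factors 0.936 to 1.028). The 54 libraries of the 19 groups that had replicates entered 1 fit with edgeR's quasi-likelihood test, with 1 coefficient per group, 35 residual degrees of freedom, and p-values were adjusted by Benjamini-Hochberg over 17516 genes in each of 23 comparisons. The fit was repeated without library 1 of Sagunja low (53 libraries, 17454 genes). Standard errors were derived from the F statistic. CPM used the TMM factors of all 60 libraries. The tests were checked on simulated counts. Software was R 4.3.3, edgeR 4.0.16, limma 3.58.1, DESeq2 1.42.0, Python 3.11.15, pandas 2.3.3 and matplotlib 3.10.9. Alternatives were scaling by library size, no low-count filter, a replicate block, a fit of the compared groups alone, DESeq2, and leaving out each library. Same-numbered replicates deviated together in every pair for Astragalus high against low (correlations 0.13 to 0.40) and Cinnamon medium against low (0.41 to 0.72). Correlations were positive in every pair also for Cnidium high (0.09 to 0.15) and medium (0.08 to 0.28) against low. The same held for Astragalus medium (0.01 to 0.23), Samul high (0.1) and Samul medium (0.08) against low. In these and the other comparisons the number was taken as a label, and the main fit used no block. With a replicate block within the set, 45 of 46 called member results kept their call.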

Additional observations from a re-analysis of the deposited data

Results flagged for a closer look

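In 12 cases a member's change from the low to the high dose differed between extracts of 1 set by a test of the difference itself (edgeR, Benjamini-Hochberg adjusted p under 0.05). Between Cinnamon and Astragalus the log2 difference was -1.96 for ANKRD1, -1.05 for CCN2, -0.76 for TGFB3, -0.68 for SKIL, -0.68 for NUAK2, -0.56 for LTBP2, -0.50 for AMOTL2, -0.42 for CCN1, -0.32 for PMEPA1 and 0.50 for TGFBR1. All 10 were called without library 1 of Sagunja low too. The calls of TGFBR1, SKIL, PMEPA1, AMOTL2 and CCN1 were lost without 7, 4, 5, 11 and 5 of the 13 libraries left out in turn. Between Sagunja and Samul it was -0.81 for TEAD4 and -0.36 for TGFB3. Library 1 of Sagunja low had 25.4 CPM of TEAD4 against 14.1 and 13.1 in its replicates. Without that library the differences were -0.45 (adjusted p = 0.0718) and -0.33 (adjusted p = 0.101).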

How the results depend on the processing

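No called member changed direction under the settings run. Counts below are of the 31 members called. Without library 1 of Sagunja low the counts for the low dose against vehicle went from 5 to 14 for the 5 pooled extracts, 1 to 3 for Cnidium, 1 to 8 for Rehmannia, 2 to 8 for Cinnamon, 5 to 10 for Astragalus, 13 to 11 for Sagunja and 3 to 10 for Samul. They went from 0 to 2 for differences among low doses, 15 to 9 for Sagunja high against low, and 4 to 0 for Sagunja medium against low. With all 6 extracts in the mean the pooled count was 5, and 14 without that library, a setting chosen after seeing the data.

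When each library was left out in turn, the range was 3 to 14 for the pooled low dose, 0 to 3 for Cnidium low, 1 to 8 for Rehmannia low, 1 to 8 for Cinnamon low, 3 to 10 for Astragalus low, 5 to 22 for Sagunja low, 0 to 10 for Samul low and 0 to 2 for differences among low doses. For high against low it was 0 to 4 for Rehmannia, 9 to 19 for Cinnamon, 0 to 1 for Astragalus, 9 to 24 for Sagunja and 0 to 2 for Samul. It was 0 to 19 for Sagunja medium against low. For differences between dose effects it was 0 to 1 for Cnidium and Rehmannia, 6 to 18 for Cinnamon and Astragalus and 0 to 9 for Sagunja and Samul. Of 616 such tests of called members, 159 lost the call and 457 kept it. Where a group was left with 1 library, that library was assumed to vary like the others.

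A fit of the compared groups alone called 16 for the pooled low dose, 8 for Cnidium, 10 for Rehmannia, 5 for Cinnamon, 15 for Astragalus, 0 for Sagunja and 16 for Samul low, and 3 for differences among low doses. For high against low it called 5 for Rehmannia, 16 for Cinnamon, 0 for Astragalus, 0 for Sagunja and 4 for Samul, and for medium against low 0 for Sagunja and 2 for Samul. It called 1 between Cnidium and Rehmannia, 14 between Cinnamon and Astragalus and 0 between Sagunja and Samul. This fit lost 36 of 76 member calls, and its Sagunja fits hold library 1 among few libraries.

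Scaling by library size called 3 for the pooled low dose, 2 for Cnidium low, 3 for Cinnamon low, 0 for Astragalus and 0 for Samul high against low, and 1 between Sagunja and Samul (11 of 76 member calls lost). Without the low-count filter (genes with a total of at least 5 counts, chosen after seeing the data, since the fit failed with fewer) 0 were called for Astragalus and 0 for Samul high against low, 2 for Samul low, 6 between Cinnamon and Astragalus and 1 between Sagunja and Samul (15 of 76 lost). DESeq2 called 2 for Rehmannia low, 3 for Cinnamon low, 5 for Samul low, 3 for Rehmannia and 3 for Samul high against low, and 3 between Sagunja and Samul (1 of 76 lost).

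With a replicate block, 2 were called for Rehmannia low, 3 for Cinnamon low and 2 for Samul high against low, and none of the 76 member calls was lost. With the replicate block within each set, 3 were called for Samul and 0 for Astragalus high against low. TGFB3 lost its call with Astragalus, where same-numbered libraries deviated together. The block within each set changed no other call. The cause of these differences was not tested. Replication of 2 or 3 libraries per group and the shared spread limit what small changes could be called.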
